A study of Mus musculus with 16 samples.

Results

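SAM/P-8 and SAM/R-1 are inbred lines of the senescence-accelerated mouse, derived by selection from AKR/J stock per the labels. SAM/P-8 is known as a senescence-prone branch with early deficits in learning and memory, and SAM/R-1 as a branch that ages more normally. Hippocampal RNA of male mice of both lines was hybridised to one-colour Agilent whole mouse genome arrays, 16 in all. The comparison described here used 8 of them, the 4 arrays of SAM/P-8 mice and the 4 arrays of SAM/R-1 mice that ate the control diet for 8 weeks from 8 weeks of age, chosen by their titles. The other 8 arrays came from mice of either line fed that chow plus 0.1% coral calcium hydride (CCH), 4 per line, and are used below as the same strain comparison on other arrays. Both lines share the AKR/J background, and no array of AKR/J itself or of another strain enters the comparison. The labels number the replicates without saying whether each array is a separate animal, so a p-value here covers only the spread among these arrays. The groups were each placed on a separate slide, and strain and slide cannot be told apart.

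The hippocampus is a bulk tissue of pyramidal and granule neurons, interneurons, glia, vessels and resident microglia. A difference in a gene of a cell type can come from fewer or more cells or from a different amount of RNA per cell, and bulk arrays cannot tell these apart. Type I interferons act through a receptor whose kinases JAK1 and TYK2 phosphorylate STAT proteins. These, STAT2 among them, join IRF9 in a complex that switches on antiviral genes through an element in their promoters. Brain microglia, astrocytes, endothelial cells and neurons can all express such genes.

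Of the 43379 non-control spots per array, 28920 to 30546 were well above background in SAM/P-8 and 30552 to 31901 in SAM/R-1. Arrays of a group correlated at 0.992 to 0.995 in SAM/P-8 and at 0.993 to 0.996 in SAM/R-1. The first principal component of the 8 arrays held 53.7% of the variance and placed SAM/P-8 between -39.3 and -27.7 and SAM/R-1 between 31.2 and 36.1. The second held 13.7% and ran from 26.3 on SAM/P-8 replicate 1 to -26.1 on SAM/P-8 replicate 4, within each strain. Of the 27 hippocampal neuron markers listed, 24 were measured, and their mean score lay between -0.06 and 0.13 in SAM/P-8 and between -0.10 and 0.01 in SAM/R-1.

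Levels are given as log2 of the processed signal minus the 75th percentile of the array, on a scale that is read within a probe and not between probes. Differences are SAM/P-8 minus SAM/R-1 in log2 with their standard errors from limma, n = 4 and 4, with Benjamini-Hochberg adjustment over 28223 probes and a threshold of 0.05. Of these probes 14.1% passed, 1737 higher and 2254 lower in SAM/P-8. For genes, each read by its brightest probe, 828 of 13250 were higher (6.25%) and 893 were lower (6.74%). Most of these differences were small: the median absolute difference was 0.41 among the genes that passed and 0.10 among all genes, and 1047 genes passed with a difference below 0.5. A difference of at least 2-fold was reached by 222 genes, 120 higher and 102 lower, and 181 of them had a single probe kept. The arrays of the strains did not overlap for 2521 genes, 19.0% of those tested.

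Ccl19 was well above background in both strains and had the largest difference of the genes so measured, while Tyk2 and Trim12a were well above background in SAM/P-8 alone. Ccl19, a chemokine that draws dendritic cells and naive T cells through the receptor CCR7, stood at 5.08, 5.07, 5.11 and 5.12 on the SAM/P-8 arrays, against -1.35, -0.10, -1.28 and -1.17 on the SAM/R-1 arrays. Its groups lay far apart, and the SAM/P-8 arrays were almost level while SAM/R-1 replicate 2 stood above the 3 others. The difference was 6.07 ± 0.22, 67.1-fold (adjusted p = 3.61e-11), and the other probe of Ccl19 gave 6.13 ± 0.18. Tyk2, the kinase at the type I interferon receptor, read -0.06, -0.12, 0.14 and 0.00 in SAM/P-8, against -7.15, -8.17, -8.23 and -8.17 in SAM/R-1. No SAM/R-1 array was well above background for it, so the excess in SAM/P-8 is a bound of at least 64.9-fold (adjusted p = 7e-13), from a single probe. Trim12a, of the TRIM5-like antiviral genes, read -0.54, -0.78, -0.60 and -0.95 in SAM/P-8, against -8.25, -8.03, -8.05 and -7.97 in SAM/R-1. Its excess was at least 39.7-fold (adjusted p = 1.18e-13). Its other probe, likewise not above background on any SAM/R-1 array, was higher by at least 4.68-fold. Here and below, a bound sets the mean of the bright strain against the lowest signal that counted as well above background on the arrays of the dim one. The adjusted p beside a bound is that of limma's fitted difference, which uses the dim strain's values as read, not well above background. The bound itself was not tested.

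**Figure D1:**
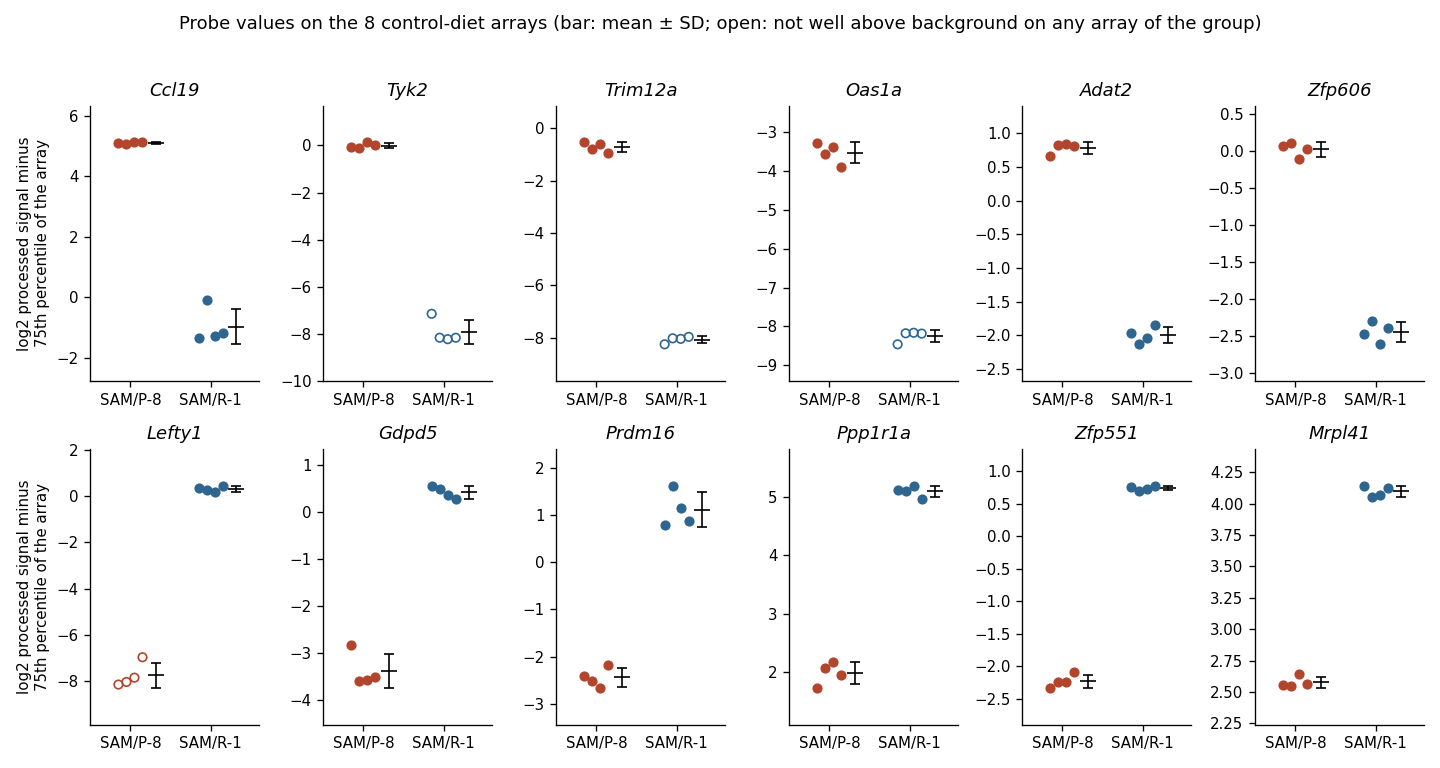
Levels of 12 genes on the 8 control-diet arrays, as log2 processed signal minus the 75th percentile of the array, with a separate vertical scale in each panel, SAM/P-8 on the left and SAM/R-1 on the right. Points are arrays, bars are the mean ± SD of 4 arrays, and open points belong to a group in which no array was well above background. The groups do not overlap in any panel, and each gene fell under a naming rule that required this. For Ccl19 the SAM/P-8 arrays sit between 5.07 and 5.12 and the SAM/R-1 arrays between -1.35 and -0.10.

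Other large increases came from genes that were measured in both strains on every array. Adat2, a subunit of a tRNA-editing deaminase, read 0.66, 0.83, 0.83 and 0.81 in SAM/P-8, against -1.97, -2.14, -2.04 and -1.85 in SAM/R-1, a difference of 2.78 ± 0.07 (adjusted p = 7.16e-13). Rpusd4, a pseudouridine synthase of mitochondrial RNA, read 1.08, 1.11, 1.28 and 0.97, against -0.93, -0.88, -0.95 and -0.93, 4.10-fold higher in SAM/P-8. Mal2, a membrane protein of apical transport and of synaptic vesicles, read 4.47, 4.80, 4.64 and 4.56 in SAM/P-8, against 2.77, 2.52, 2.62 and 2.66 in SAM/R-1. In none of these genes did the strains overlap, which was a condition for naming them, and the spread within a strain was small beside the difference. Slc2a5, a fructose transporter expressed by microglia, was 3.98-fold higher (1.99 ± 0.13, adjusted p = 3.39e-08), and Ddr2, a receptor tyrosine kinase for fibrillar collagen, 5.39-fold (2.43 ± 0.18, adjusted p = 2.01e-07). The zinc finger genes Zfp429, Zfp606 and Zfp667 were higher by 2.62 ± 0.06, 2.46 ± 0.07 and 2.37 ± 0.10. For Zfp606 the other probe passed in the opposite direction (-0.43 ± 0.06, adjusted p = 0.000225), and for Zfp667 the other probe was higher by only 0.49 ± 0.08.

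Some increases had a wide spread within SAM/P-8. S100a9, an alarmin of neutrophils and monocytes, read 0.44, -0.02, -0.78 and -1.74 in SAM/P-8, against -2.47, -2.45, -2.55 and -3.72 in SAM/R-1. The groups did not overlap, with a difference of 2.27 ± 0.61 (adjusted p = 0.0217), and the call was lost without SAM/P-8 replicate 1 or 2 or without SAM/R-1 replicate 4. Ch25h, the enzyme that makes the antiviral oxysterol 25-hydroxycholesterol, read -0.44, -2.32, -1.42 and -1.04, against -3.69, -2.69, -4.15 and -2.98 (2.07 ± 0.46, adjusted p = 0.00632). Tmem252, a transmembrane protein, showed a like spread (2.24 ± 0.38, adjusted p = 0.000862). Pirb, an inhibitory receptor for MHC class I known to limit synaptic plasticity, was higher on each of its 2 probes, by 1.49 ± 0.23 and 1.71 ± 0.23. Isg20, an interferon-induced exonuclease, was also higher on each of its 2 probes, by 1.30 ± 0.31 and 1.39 ± 0.35. Tmem40 was higher by 3.26 ± 0.33, with 2 of the 4 arrays of SAM/R-1 above background, and its other probe, not above background on any SAM/R-1 array, was higher by at least 2.24-fold.

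The largest decrease was that of Lefty1, a secreted antagonist of Nodal that fixes left-right asymmetry in the embryo. It read -8.13, -8.02, -7.84 and -6.96 in SAM/P-8, where no array was well above background, against 0.35, 0.25, 0.18 and 0.44 in SAM/R-1. The decrease was thus at least 62.8-fold (adjusted p = 1.52e-11), on a single probe. Lefty2, its close relative with the same role, read between -8.05 and -7.50 in SAM/P-8 and between -5.18 and -4.83 in SAM/R-1, at least 1.64-fold lower (adjusted p = 4.56e-05).

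Further large decreases were measured on every array of both strains. Gdpd5, a glycerophosphodiester phosphodiesterase that takes part in motor neuron differentiation, read -2.83, -3.58, -3.58 and -3.50 in SAM/P-8, against 0.55, 0.48, 0.35 and 0.26 in SAM/R-1. It was 13.8-fold lower (-3.78 ± 0.20, adjusted p = 3.37e-09), with SAM/P-8 replicate 1 above the 3 others of its strain. Prdm16, a zinc finger regulator of neural stem cells and brown fat, read -2.41, -2.50, -2.66 and -2.18, against 0.79, 1.62, 1.14 and 0.87 (-3.54 ± 0.20, adjusted p = 9.54e-09). Ppp1r1a, an inhibitor of protein phosphatase 1 that is switched on by protein kinase A, read 1.73, 2.07, 2.17 and 1.95 in SAM/P-8, against 5.12, 5.11, 5.20 and 4.97 in SAM/R-1. No array of a strain came near the other strain in these 3 genes, which were named among genes without overlap. The second probe of Ppp1r1a gave -3.02 ± 0.10 beside -3.12 ± 0.10. Zfp551, a zinc finger gene, was lower by 2.97 on the log2 scale (± 0.07, adjusted p = 3.18e-13).

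Mrpl41, a protein of the large mitochondrial ribosomal subunit, read 2.55, 2.55, 2.64 and 2.56 in SAM/P-8, against 4.14, 4.05, 4.07 and 4.12 in SAM/R-1. It was 2.87-fold lower on this probe (-1.52 ± 0.04, adjusted p = 5.31e-12), and its dimmer probe was not above background on any SAM/P-8 array. Alox5, the lipoxygenase that starts leukotriene synthesis, was lower on all 3 of its probes, by -1.35 ± 0.11, -1.34 ± 0.10 and -1.09 ± 0.18. The inhibitory Fc receptor gene Fcgr2b was lower on all 3 of its probes, by -0.88 ± 0.11 on the brightest, and Mpeg1, the macrophage pore-forming perforin-2, on both of its probes, by -0.91 ± 0.14 on the brighter. Tyms, thymidylate synthase, was lower by -0.86 ± 0.07 and -0.81 ± 0.07. Col11a2, a chain of type XI collagen, was lower by -1.25 ± 0.08. For 2 genes among the largest decreases the probes parted: Trub1, a pseudouridine synthase, gave -2.46 ± 0.10 and -0.30 ± 0.10, of which the second did not pass (adjusted p = 0.0727), and Emb, a cell adhesion protein, gave -1.55 ± 0.14 and -0.32 ± 0.23 (adjusted p = 0.394).

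Adam8, a metalloprotease of immune cells, Usf1, a transcription factor of the E-box, Morn2, Tmem243, Slc25a41, Uap1l1, Sapcd2, Thnsl2 and D830030K20Rik were lower as well, by -1.55 to -2.28. None of these 9 genes had an array of SAM/P-8 that reached the SAM/R-1 range, which was a condition for naming them. All 9 were lower on the CCH diet too.

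Genes read in only 1 strain fell into unequal groups. Picking genes by detection in 1 strain favours a pass in that direction on the control diet, so the counts passing there are no separate result. Of all genes 6.25% were higher and 6.74% lower on the control diet, and 6.05% and 6.59% on the CCH diet. Well above background on all 4 SAM/P-8 arrays and no SAM/R-1 array were 14 genes, all of which passed as higher, and all 14 were also higher on the CCH diet. Besides Tyk2, Trim12a and Oas1a they included Abcb1a, the P-glycoprotein that pumps drugs back out of brain capillaries, higher by at least 4.36-fold, and Plac8, a small protein of immune cells, at least 3.56-fold. Gys2, the liver form of glycogen synthase, was at least 3.87-fold higher, Trim34a, another TRIM gene, at least 3.08-fold, and Ifi202b, an interferon-inducible DNA-binding protein, at least 2.98-fold. The opposite pattern held for 96 genes, of which 63 passed as lower, and 21 of these 63 were also lower on the CCH diet. The 63 were picked by their control-diet arrays, so their sizes on the 2 diets are not set side by side. Olfactory and vomeronasal receptor genes, which serve smell in the nose, made up 17 of the 63, and examples were Olfr1232, Olfr149, Olfr373 and Vmn1r47, at least 2.46-fold, 1.92-fold, 1.69-fold and 2.03-fold lower. Pnlip, pancreatic lipase, was at least 2.11-fold lower, Ifi211, of the same gene family as Ifi202b, at least 2.36-fold, and Cdh6, a cadherin, at least 1.67-fold. With the normexp background correction in place of the scanner software's own, only Tyk2 and Trim12a still passed among the genes named here. Lefty2, given above, did not pass with it either.

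Of the 109 olfactory and vomeronasal receptor genes measured, 3 were higher and 41 lower in SAM/P-8 on the control diet, and 3 were higher and 20 lower on the CCH diet. Of the 109, 107 lay in the dimmest of 4 equal bins of genes by mean level. On the control diet 6.25% of all genes were higher and 6.74% lower, and in the dimmest bin 279 and 358 of 3313 genes. The share of spots well above background was 66.7 to 70.4% in SAM/P-8 and 70.4 to 73.5% in SAM/R-1. In the dimmest bin, 71.0% of the genes higher and 40.5% of the genes lower on the control diet were so on the CCH diet, against 53.2% and 69.9% in the brightest bin. How much of the decreases among dim genes moved with the array background was not tested.

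Of 32 interferon response genes measured, 26 passed as higher in SAM/P-8 and 0 as lower, beside 6.25% and 6.74% of all genes, and 31 had a positive difference. The median difference of the list was 0.91, beside -0.01 over all genes. The mean score of the list was 0.62, 0.69, 0.58 and 0.31 on the SAM/P-8 arrays, against -0.52, -0.41, -0.72 and -0.55 on the SAM/R-1 arrays, so that the strains stood apart and SAM/P-8 replicate 4 was the lowest of its strain.

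Oas1a, which senses double-stranded RNA and makes the messenger that activates RNase L, read -3.28, -3.56, -3.38 and -3.89 in SAM/P-8, against -8.46, -8.18, -8.16 and -8.19 in SAM/R-1, where no array was well above background. It was at least 5.66-fold higher (adjusted p = 1.44e-07). Isg15, a ubiquitin-like modifier, read -2.09, -1.82, -2.08 and -2.62, against -4.01, -3.84, -4.06 and -3.99, 3.54-fold higher (adjusted p = 0.00141). Ifit1, which binds viral RNA without a host cap, read -3.65, -4.08, -4.17 and -4.07 in SAM/P-8, against -6.16, -6.31, -8.29 and -6.84 in SAM/R-1 (adjusted p = 0.00193). On SAM/R-1 replicates 2, 3 and 4 Ifit1 lay below the lowest signal that counted as well above background. These 3 genes had no array of SAM/P-8 within the SAM/R-1 range. Usp18, the protease that removes ISG15 and damps receptor signalling, was higher by 3.23 ± 0.55 with 1 of 4 SAM/R-1 arrays above background, and Eif2ak2, the RNA-sensing kinase PKR, by 1.52 ± 0.12. Irf7, the factor that amplifies interferon production, was higher by 1.78 ± 0.27, and Ifih1, the RNA sensor MDA5, by 1.17 ± 0.14. Irf9 and Stat2, of the transcription complex itself, were higher by 0.44 ± 0.10 and 0.27 ± 0.08, both past the test. The 6 genes that did not pass were Cxcl10, Rsad2, Bst2, Irgm1, Ifitm3 and Ifit2, with differences of 1.24 ± 0.54, 1.06 ± 0.46, 0.88 ± 0.46, 0.37 ± 0.12, 0.17 ± 0.20 and -0.09 ± 0.13.

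Of 24 measured genes of the interferon receptors and JAK-STAT signalling, 2 passed as higher, Tyk2 and Jak3, and 0 as lower. The list median was 0.06, and of all genes 6.25% were higher and 6.74% lower. Jak3 passed on 1 of its 3 probes, and its call was lost without SAM/P-8 replicate 1, 2 or 3 or SAM/R-1 replicate 1. The receptor chains Ifnar1 and Ifnar2 stood at 0.06 ± 0.07 and 0.15 ± 0.11, and the kinases Jak1 and Jak2 at 0.08 ± 0.06 and 0.10 ± 0.09, none past the test. Of 22 microglia markers 4 were higher and 1 lower with a median of 0.11, and 9 were higher on the CCH diet; their score lay between -0.10 and 0.15 in SAM/P-8 and between -0.13 and 0.05 in SAM/R-1. Of 7 measured leukocyte markers 1 was higher and 2 lower, with scores of -0.29 to 0.12 in SAM/P-8, against -0.15 to 0.11 in SAM/R-1, and 16 further listed markers were not measured. The part of immune cells in the interferon difference was not tested. With the normexp background correction in place of the scanner software's own, 8 of the 32 interferon genes were higher. Oas1a, Isg15, Ifit1 and Usp18 were not among them.

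The promoters of these genes were searched for the core of the interferon-stimulated response element, written as GAAANNGAA, on both strands, in windows from 250 bases before to 50 bases after the start given by RefSeq (GRCm38.p6). A match was present in 8.56% of all 32851 windows of the table and in 8.57% of the 10580 genes measured here that have an entry. Of the 26 interferon response genes that were higher, 19 had an entry and 13 of these held a match, 68.4%. Among all genes with an entry the share was 11.3% of the 627 that were higher and 9.36% of the 716 that were lower. The 6 without a match were Irf9, Oasl2, Ifi35, Irf7, Xaf1 and Cmpk2. A match is a run of letters and not a measured binding site, and the windows are those of the reference strain, not of SAM/P-8 or SAM/R-1. The interferon genes were listed for a response that acts through this element, so their share says nothing about the strain difference. No share was taken for the listed interferon genes that did not pass. The windows of Oas1a, Isg15 and Ifit1 are shown as examples of interferon genes with values above whose windows hold several matches, 2, 3 and 3, and were picked for holding them. Capitals mark the matches, which overlap in part, and in Ifit1 they lie on the opposite strand and read TTCNNTTTC.
Oas1a, chr5:120907476-120907775, minus strand: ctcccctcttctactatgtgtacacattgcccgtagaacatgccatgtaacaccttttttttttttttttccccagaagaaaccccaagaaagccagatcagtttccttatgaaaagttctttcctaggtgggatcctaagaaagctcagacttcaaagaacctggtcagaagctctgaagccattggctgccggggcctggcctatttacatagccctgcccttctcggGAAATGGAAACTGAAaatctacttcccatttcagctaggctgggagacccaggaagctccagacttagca
Isg15, chr4:156200769-156201068, minus strand: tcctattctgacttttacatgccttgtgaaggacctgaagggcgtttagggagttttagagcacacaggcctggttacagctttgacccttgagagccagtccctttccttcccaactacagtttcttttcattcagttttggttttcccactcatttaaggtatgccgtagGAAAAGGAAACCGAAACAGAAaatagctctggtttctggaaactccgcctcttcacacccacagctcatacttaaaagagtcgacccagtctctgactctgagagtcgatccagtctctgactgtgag
Ifit1, chr19:34640639-34640938, plus strand: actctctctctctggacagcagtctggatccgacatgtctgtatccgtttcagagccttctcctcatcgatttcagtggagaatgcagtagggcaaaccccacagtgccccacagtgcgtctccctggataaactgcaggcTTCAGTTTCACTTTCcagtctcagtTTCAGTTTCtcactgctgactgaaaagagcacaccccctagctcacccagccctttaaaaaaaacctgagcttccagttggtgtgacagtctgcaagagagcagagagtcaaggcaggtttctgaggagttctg
The first match began 20 bases before the start in Oas1a, 78 bases in Isg15 and 109 bases in Ifit1.

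Endothelial and pericyte genes formed the other large group that was higher in SAM/P-8. Of 30 measured, 17 passed as higher and 0 as lower, beside 6.25% and 6.74% of all genes, and the median difference was 0.49. The score of the list was 0.51, 0.14, 0.29 and 0.15 on the SAM/P-8 arrays, against -0.31, -0.13, -0.23 and -0.42 on the SAM/R-1 arrays, without overlap. On the CCH diet 8 were higher and the median was 0.17. Without SAM/P-8 replicate 1, which had the highest score, 11 of the 30 were higher on the control diet, and with normexp 7 were.

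Abcb1a has been given above. Vwf, the clotting protein von Willebrand factor of endothelial cells, read 1.90, 0.70, 0.77 and 0.26 in SAM/P-8, against -0.73, 0.11, -0.60 and -0.66 in SAM/R-1. Its groups did not overlap, though SAM/P-8 replicate 4 and SAM/R-1 replicate 2 came close, and its probes gave 1.38 ± 0.27 and 1.30 ± 0.28. Rgs5, a pericyte regulator of G proteins, read 0.64, 0.52, 0.36 and 0.54 in SAM/P-8, against -0.37, -0.42, -0.36 and -0.48 in SAM/R-1 (0.92 ± 0.10, adjusted p = 1.56e-05). The receptors for vascular endothelial growth factor, Flt1 and Kdr, were higher by 0.78 ± 0.12 and 0.76 ± 0.15, the tight junction protein gene Cldn5 by 0.52 ± 0.13, and Pecam1, which joins endothelial cells, by 0.57 ± 0.16. Pdgfrb and Kcnj8 of pericytes were higher by 0.52 ± 0.10 and 0.58 ± 0.07. Among transporters of the barrier Abcb1a and Abcg2 were higher, while Slc2a1, the glucose transporter, stood at 0.12 ± 0.09, Mfsd2a, the lipid transporter, at 0.10 ± 0.10, and Slco1a4, the anion transporter, at 0.02 ± 0.13, none past the test.

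Of 22 meningeal and fibroblast genes 2 passed as higher, Foxc1, a factor of meningeal development, and Islr, with a list median of 0.62, and the score was 0.98, 0.11, 0.40 and -0.43 on the SAM/P-8 arrays, against -0.33, 0.18, -0.34 and -0.57 on the SAM/R-1 arrays. SAM/P-8 replicate 1 was the highest and the strains overlapped. The other probe of Islr did not pass (0.35 ± 0.15, adjusted p = 0.149). For all genes the shares were 6.25% higher and 6.74% lower. Of 6 measured red blood cell genes 0 passed as higher and 1 as lower, with a median of 0.68 and scores of -0.37 to 1.12 in SAM/P-8, against -0.51 to -0.06 in SAM/R-1; the globin gene Hba-a1 stood at 1.24 ± 0.47, not past the test. Of 19 choroid plexus and ependymal genes none passed, and their scores spread widely within each strain, -1.75 to 1.00 in SAM/P-8 against -1.30 to 0.84 in SAM/R-1. The part of meningeal tissue and blood in the vascular difference was not tested.

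**Figure D2:**
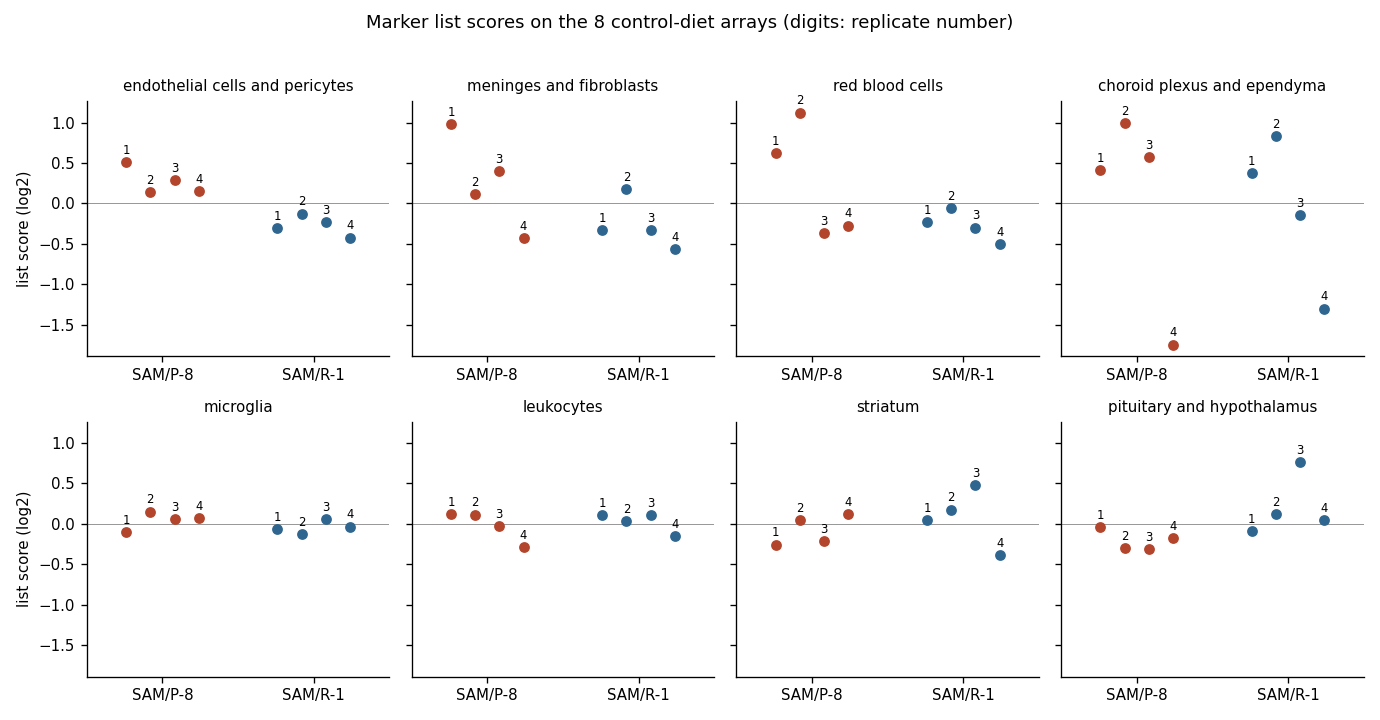
Mean scores of 8 marker lists on the 8 control-diet arrays, in log2 units after each gene's mean is subtracted, SAM/P-8 on the left and SAM/R-1 on the right of each panel, with the replicate number above each point. The endothelial and pericyte scores of the strains do not overlap, whereas the choroid plexus scores span -1.75 to 1.00 in SAM/P-8 against -1.30 to 0.84 in SAM/R-1.

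**Figure D3:**
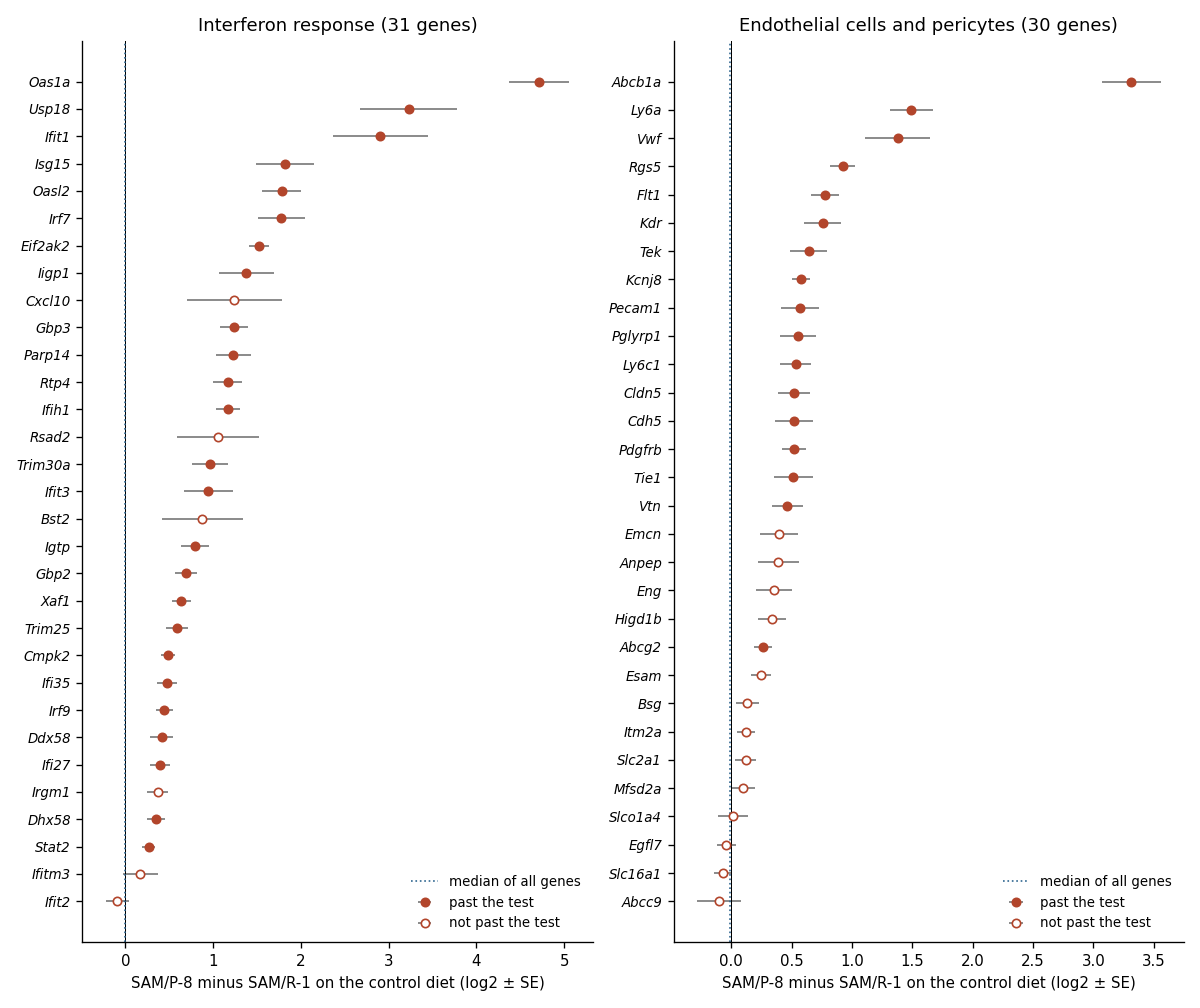
Strain differences, SAM/P-8 minus SAM/R-1 in log2 ± SE, of 31 interferon response genes and the 30 endothelial and pericyte genes measured on the control diet, with 1 measured interferon gene not drawn. Oas1a and Abcb1a, not above background in SAM/R-1, are drawn at their fitted differences, which are no measured sizes. Filled points passed the test and open points did not; 25 interferon genes and 17 vascular genes lie to the right of 0 and passed, and the dotted line is the median of all genes at -0.01.

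Of 20 measured genes of antigen presentation, 8 were higher and 2 lower, beside 6.25% and 6.74% of all genes. Neither of the 2 lower genes passed without SAM/P-8 replicate 4 or SAM/R-1 replicate 2, 3 or 4. The immunoproteasome subunits Psmb8 and Psmb9, which cut peptides for class I, were higher by 0.80 ± 0.10 and 0.74 ± 0.06. Psmb9 read -0.40, -0.25, -0.29 and -0.50 in SAM/P-8, against -1.15, -1.05, -1.06 and -1.15 in SAM/R-1, without overlap. The nonclassical class I genes H2-T23 and H2-M3 were higher by 0.71 ± 0.12 and 0.64 ± 0.10, and B2m, the light chain of class I, by 0.52 ± 0.06. H2-D1 was higher by 0.56 ± 0.12 on its brighter probe, but its other probe gave -0.06 ± 0.13. Class I genes resemble each other in sequence, and how far their probes read related transcripts was not tested. The 2 lower genes, H2-DMb1 (-0.63 ± 0.19) and H2-DMa (-0.26 ± 0.08), encode the chaperone that loads class II. H2-K1, another class I heavy chain, and the class II genes Cd74 and H2-Ab1 stood at -0.38, 0.69 and 0.13 and did not pass.

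Of 17 chemokines and receptors measured, 5 were higher and 2 lower, beside 6.25% and 6.74% of all genes. Besides Ccl19 the higher ones were Ccl27a, a chemokine best known from skin, at 1.00 ± 0.07, Ccl12 at 0.99 ± 0.26, Cxcl12, which guides cells during hippocampal development, at 0.85 ± 0.15, and Ccl5 at 0.76 ± 0.14. The call of Ccl12 was lost without SAM/P-8 replicate 2 or SAM/R-1 replicate 4. Ccl17 and Ccl9 were lower, by -0.94 ± 0.09 and -0.80 ± 0.10. Ccl17, a ligand of CCR4, read -2.13, -1.85, -1.91 and -1.92 in SAM/P-8, against -1.19, -0.94, -0.89 and -1.04 in SAM/R-1, without overlap. Of 16 complement genes 2 were higher and 0 lower, with Vtn, vitronectin, an inhibitor of the terminal complex, at 0.46, a call lost in 4 of the 8 fits that each left out 1 array.

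In TGF-beta, Nodal and BMP signalling 3 of 39 genes were higher and 5 lower, beside 6.25% and 6.74% of all genes; without SAM/P-8 replicate 1 or SAM/R-1 replicate 4, 1 was higher and 4 or 5 were lower. Apart from the Lefty genes, Bmp7, a bone morphogenetic protein, was higher by 1.15 ± 0.24 and read 1.15, 0.67, 0.56 and -0.03 in SAM/P-8, against -0.57, -0.21, -0.40 and -1.05 in SAM/R-1; its other probe gave 0.66 ± 0.25, not past the test (adjusted p = 0.0917). Bmpr1b, a receptor for such ligands, was lower by -0.42 ± 0.06 and Foxh1, the partner of SMADs in Nodal responses, by -0.35 ± 0.06. Of 30 Wnt genes 3 were higher and 1 lower, led by Wif1, a secreted Wnt inhibitor, at 0.81 ± 0.13. Axin2, a target and brake of the pathway, was lower by -0.29 ± 0.08, a call lost without SAM/P-8 replicate 1 or SAM/R-1 replicate 3.

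Of 25 genes of senescence and cell cycle inhibition 3 were higher and 0 lower, beside 6.25% and 6.74% of all genes. They were the cyclin-dependent kinase inhibitor genes Cdkn2b at 0.91 ± 0.12, Cdkn2d at 0.72 ± 0.05 and Cdkn1b at 0.48 ± 0.05. The other probe of Cdkn1b did not pass (0.26 ± 0.16, adjusted p = 0.315). Cdkn2d read 3.85, 3.81, 3.86 and 3.83 in SAM/P-8, against 3.12, 3.14, 3.08 and 3.14 in SAM/R-1, without overlap. In 33 DNA repair genes 0 were higher and 3 lower, Chek1, a checkpoint kinase, at -0.53 ± 0.14, Ogg1, which removes oxidised guanine, at -0.39 ± 0.06, and Ercc2 of excision repair at -0.30 ± 0.08, and on the CCH diet 3 were higher and 1 lower. Chek1 and Ercc2 each lost their call in 4 of the 8 fits that left out 1 array, and the other probe of Ogg1 did not pass (-0.19 ± 0.07). Tert, the telomerase catalytic subunit, was lower by -0.95 ± 0.09 and Terf2 of the telomere cap higher by 0.23 ± 0.07, out of 23 genes of telomeres and sirtuins. The call of Terf2 was lost in 5 of the 8 fits.

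Of 26 antioxidant enzymes 0 were higher and 1 lower, beside 6.25% and 6.74% of all genes. The lower gene was Gsr, glutathione reductase, at -0.24 ± 0.07 and past the test on 2 of its 3 probes. Its call was lost in 5 of the 8 fits without 1 array. Among 29 NRF2 regulators and targets, Gstm2, a glutathione transferase, was higher by 1.46 ± 0.34 and Gclm, of glutathione synthesis, by 0.59 ± 0.08, while Gstm1 was lower by -0.57 ± 0.04. Gstm2 read 0.51, 0.42, 0.30 and -1.05 in SAM/P-8, against -1.41, -1.01, -1.25 and -2.01 in SAM/R-1, and SAM/P-8 replicate 4 fell inside the SAM/R-1 range. Of 22 genes of amyloid precursor processing, Ide, the insulin- and amyloid-degrading protease, was higher by 0.31 ± 0.07 and the sheddase gene Adam17 by 0.24 ± 0.08, and Apoe, the main lipid carrier of the brain, was lower by -0.17 ± 0.05. The other probe of Ide gave -0.12 ± 0.07 and that of Adam17 0.15 ± 0.10, neither past the test, and the calls of Adam17 and Apoe were lost in 6 and 5 of the 8 fits. None of 21 genes of tau and its kinases passed, and the smallest adjusted p was that of Camk2a (-0.25 ± 0.08, 0.0647).

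Of 51 respiratory chain and ATP synthase genes 1 was higher and 4 lower, and the median was -0.02. Cox6c, a subunit of cytochrome oxidase, was lower by -0.51 ± 0.06, with 5.39, 5.62, 5.50 and 5.48 in SAM/P-8, against 6.04, 5.95, 5.99 and 6.07 in SAM/R-1, without overlap. Of 48 cytoplasmic ribosomal proteins 1 was higher and 1 lower, of 31 proteasome subunits 2 were higher and 0 lower, and of 34 genes of autophagy and lysosomes none passed. Of 30 genes of cholesterol and fatty acid synthesis 4 were higher and 2 lower, with Hsd17b7 higher by 0.60 ± 0.08 and Dhcr7, the last enzyme before cholesterol, lower by -0.60 ± 0.05. In the unfolded protein response 3 of 23 genes were higher and Eif2ak3, the stress kinase PERK, was lower by -0.68 ± 0.07; of 23 cytosolic heat shock proteins 2 were higher, Hspb1 at 1.03 ± 0.32 and Hsp90ab1 at 0.35 ± 0.06. The call of Hspb1 was lost in 5 of the 8 fits that left out 1 array, and with normexp no gene of the list passed. For all genes the shares were 6.25% higher and 6.74% lower.

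Of 24 hippocampal neuron markers 1 passed, Spink8, a protease inhibitor of CA1 pyramidal cells, which read 2.91, 3.21, 3.02 and 2.90 in SAM/P-8, against 1.31, 1.03, 1.09 and 1.46 in SAM/R-1. It was 3.44-fold higher (adjusted p = 5.92e-07), without overlap, on a single probe. None of 23 GABA genes and none of 19 interneuron markers passed by their brightest probe. The dimmer probe of Ndnf, an interneuron marker, was higher by 0.35 ± 0.08 (adjusted p = 0.00854). Here and for the lists below, the shares of all genes were 6.25% higher and 6.74% lower. Of 29 glutamate receptor genes 0 were higher and 2 lower, the kainate receptor gene Grik1 at -0.47 ± 0.13 and Grm3 at -0.45 ± 0.12. The other probe of Grik1 gave 0.06 ± 0.13, and neither gene passed without SAM/R-1 replicate 3. Of 39 potassium channel genes 1 was higher and 1 lower, Kcnn2, a calcium-activated channel that limits firing, at -0.42 ± 0.10 on 1 of its 2 probes. Of 30 synaptic vesicle genes Rab3c was higher by 0.45 ± 0.07 and Syn3 lower by -0.22 ± 0.06, each on 1 of its 2 probes, and Syn3 lost its call in 3 of the 8 fits. Of 22 clock genes 2 were higher and 3 lower, with the repressor genes Ciart at -0.51 ± 0.11, Nr1d1 at -0.35 ± 0.08 and Per2 at 0.38 ± 0.12. The other probe of Per2 gave -0.40 ± 0.41, its call was lost in 7 of the 8 fits, and 0 clock genes were higher without SAM/R-1 replicate 2 or 3. Of 29 immediate early genes 0 were higher and 2 lower, Sik1 at -0.62 ± 0.17 and Jund at -0.24 ± 0.07, and neither passed without SAM/P-8 replicate 2 or 3 or SAM/R-1 replicate 1, 2 or 3.

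Ntsr2, a neurotensin receptor of astrocytes, was lower by -0.70 ± 0.06 and Gfap, the astrocyte filament, higher by 0.34 ± 0.09, out of 22 astrocyte markers. The call of Gfap was lost in 4 of the 8 fits. Olig1, a factor of the oligodendrocyte lineage, was higher by 0.51 ± 0.08, out of 20 markers of that lineage. Of 18 markers of newborn neurons 1 was higher and 1 lower, beside 6.25% and 6.74% of all genes. Dcx, which stabilises microtubules in migrating young neurons, was lower by -0.41 ± 0.11, a call likewise lost in 4. For Sox11, a factor of immature neurons, the brightest probe gave 0.59 ± 0.11 and its 2 others -0.93 ± 0.11 and -0.26 ± 0.08, all 3 past the test, so its direction depended on the probe. Among microglia markers Ly86, Gpr34, Laptm5 and Itgam were higher by 0.51, 0.49, 0.27 and 0.25 and Fcer1g was lower by -0.26, with the calls of Gpr34 and Fcer1g each lost in 3 of the 8 fits. The other probe of Laptm5 did not pass (0.16 ± 0.09, adjusted p = 0.252).

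**Figure D4:**
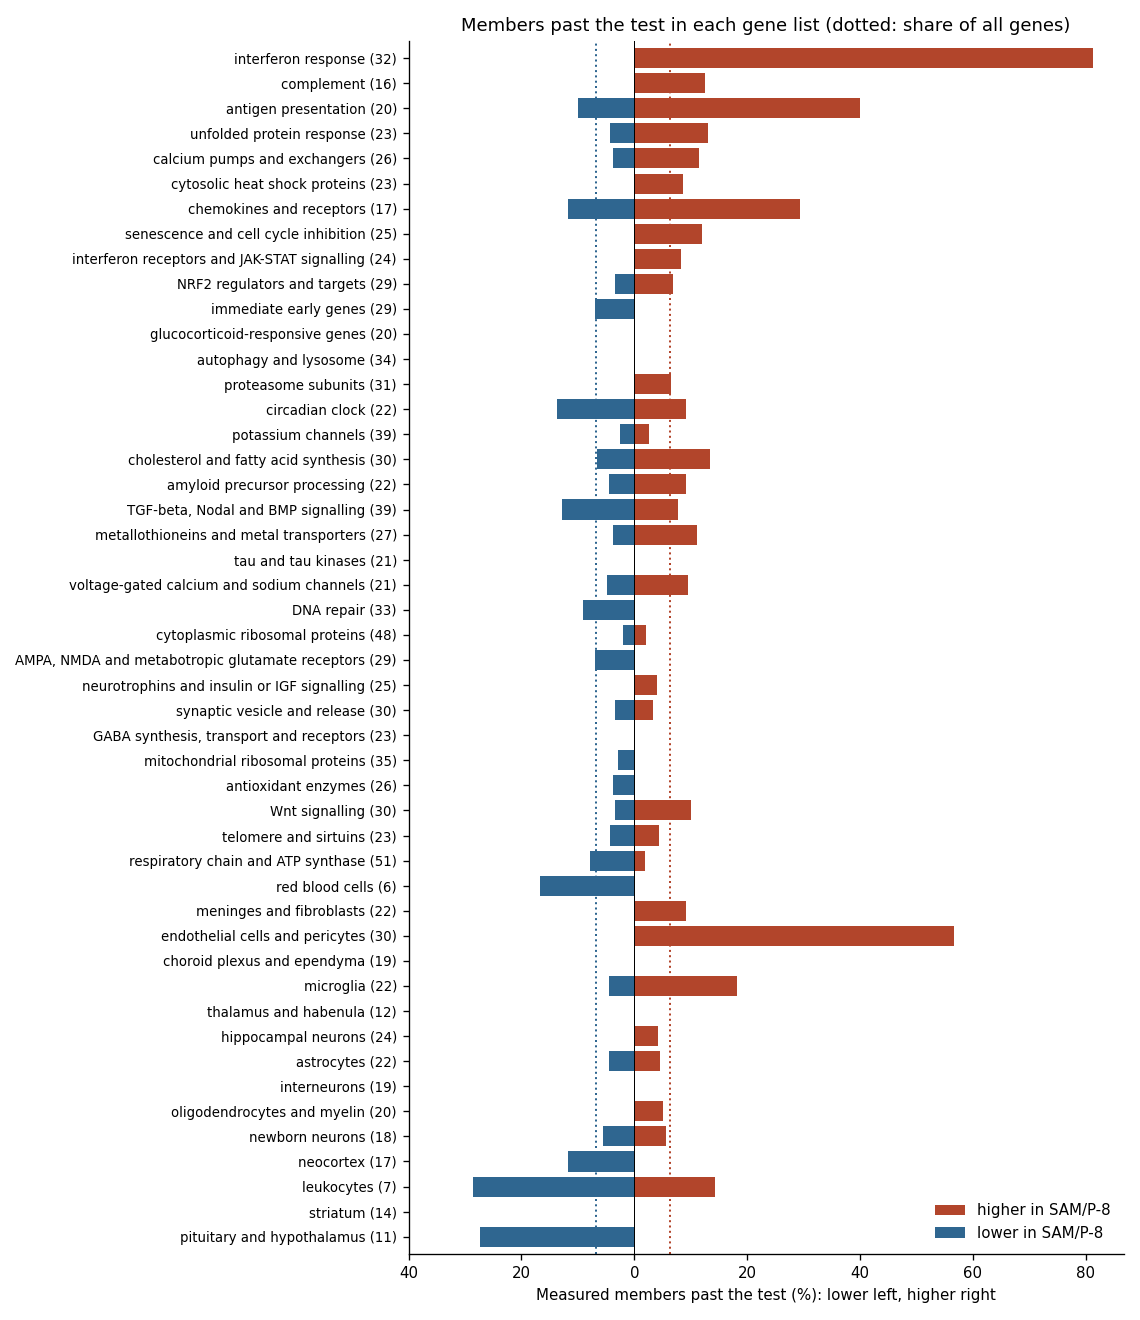
Share of the measured members of each gene list that passed the test on the control diet, in percent, with genes higher in SAM/P-8 to the right and genes lower in SAM/P-8 to the left, pathway lists above and cell type lists below. Numbers in brackets are members measured and dotted lines are the shares of all genes, 6.25% higher and 6.74% lower; the interferon list (26 of 32 higher) and the endothelial and pericyte list (17 of 30) reach farthest to the right.

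The 8 arrays of the CCH diet lay on other slides and gave the strain comparison again with no array in common. Both comparisons shared the model's estimate of the spread of each probe, and the probes were those kept on the control-diet arrays. The calls on the diets are therefore not fully separate tests. There 802 genes were higher in SAM/P-8 (6.05%) and 873 lower (6.59%). Of the genes higher on the control diet 63.9% were higher on the CCH diet, and of those higher on the CCH diet 66.0% were higher on the control diet. For the lower genes the shares were 53.8% and 55.0%. In all 529 genes were higher and 480 lower on both diets, and 2 passed in opposite directions. Of the 222 genes of at least 2-fold, 204 had the same sign on the CCH diet, and 109 of the 120 higher and 65 of the 102 lower passed again.

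On the CCH diet Ccl19 was higher by 6.06 ± 0.22, Adat2 by 2.80 ± 0.07 and Mal2 by 2.01 ± 0.09. Ppp1r1a was lower there by -2.90 ± 0.10, Prdm16 by -3.32 ± 0.20 and Gdpd5 by -3.72 ± 0.20. The interferon list had 23 of 32 genes higher and a median of 0.88, and the microglia list 9 of 22 higher.

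**Figure D5:**
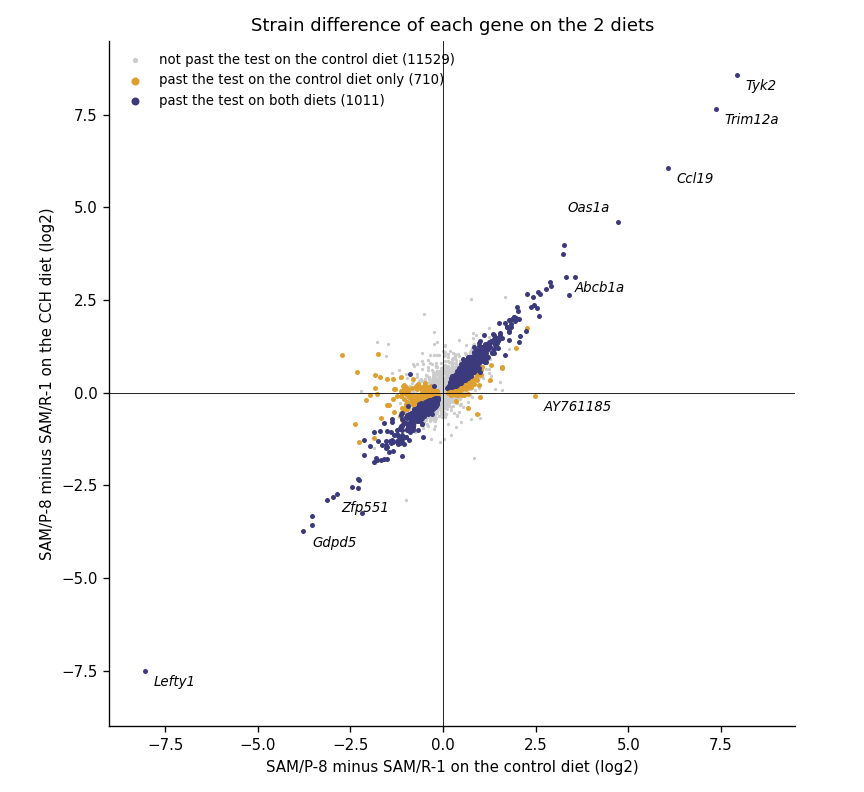
Strain difference of 13250 genes, SAM/P-8 minus SAM/R-1 in log2, on the control diet (horizontal) and on the CCH diet (vertical). Dark points are the 1011 genes that passed on both diets and orange points those that passed on the control diet alone; Tyk2, Trim12a and Ccl19 lie at the upper right, Lefty1 at the lower left, and AY761185 at 2.48 on the control diet and -0.10 on the CCH diet.

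The strain difference itself differed between the diets for 16 genes, 0.121% of those tested. AY761185, a defensin-like gene, read between -2.19 and -1.95 on the 4 SAM/P-8 arrays of the control diet, against -4.38, -4.60, -4.40 and -4.67 in SAM/R-1, a difference of 2.48 ± 0.24 (adjusted p = 2.98e-06). On the CCH diet the difference was -0.10 ± 0.24, and the 2 strain differences were 2.58 apart (adjusted p = 0.00396). Tert read -5.03, -4.91, -5.00 and -5.44 in SAM/P-8, with 3 of 4 arrays above background, against -4.10, -4.15, -4.11 and -4.23 in SAM/R-1, and on the CCH diet its strain difference was 0.04 ± 0.09. Foxe3, a lens transcription factor, and Mob3a, a kinase adaptor, passed in opposite directions, at -0.90 ± 0.09 and -0.25 ± 0.04 on the control diet and 0.51 ± 0.09 and 0.17 ± 0.04 on the CCH diet. Stc1, stanniocalcin, a hormone of calcium and phosphate balance, was higher by 0.68 ± 0.08 on the control diet and stood at -0.04 ± 0.08 on the CCH diet. The 11 others were Spem2, F9, Olfr1215, Hspa1l, Bub1, Olfr103, Olfr1317, Olfr615, Kcp, Elf4 and Ikzf3, all lower in SAM/P-8 on the control diet. Spem2, F9, Bub1 and Kcp were lower by -0.48 to -1.14, and the 7 others were not above background on any SAM/P-8 control array, with bounds of at least 1.15-fold to 1.55-fold.

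With genes placed in the order of the RefSeq annotation, 35.4% of the higher genes had another higher gene among the measured genes up to 2 places away on either side, beside 21.4% of all genes, and 33.7% of the lower genes had a lower one, beside 3054 of all 13250 genes. At 2-fold or more the shares were 41.7% and 43.1%. There were 16 runs of 3 or more neighbouring higher genes and 15 of lower genes, with 97 genes in them.

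Several of the largest differences sat in such runs. Ccl19 lay beside Ccl27a and Il11ra1, the receptor chain for interleukin 11, where 1 probe was higher by 0.52 ± 0.10 and the other lower by -0.66 ± 0.13. Lefty1 and Lefty2 were in 1 lower run. Oas1a was in a run with its paralogs Oas1f, higher by 2.25 ± 0.24, and Oas1c. Zfp667 was in a run with Zfp583 and Zfp78, and Zfp551 in a lower run with Clcn4 and Zik1. The longest run held the class I genes H2-D1, H2-Q2, H2-Q7 and H2-Q10 and the neighbouring Tcf19, with differences from 0.43 to 0.56. H2-Q2 and H2-Q10 each lost their call in 6 of the 8 fits, and the other probe of H2-Q10 gave -0.16 ± 0.12. Eif2ak3, Thnsl2 and Smyd1 were in a lower run of 4, and a higher run of 4 held the lymphocyte antigen 6 genes Ly6i, Ly6a, Ly6c1 and Ly6c2, of which Ly6a, known as Sca-1 and expressed by brain endothelium, was higher by 1.49 ± 0.18. In families such as these, signal shared between paralogs was not tested.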

How the data were processed

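Hippocampal RNA of 16 samples was labelled with Cy3 and read on one-colour Agilent arrays. The deposited intensity values are the scanner software's background-corrected processed signals, made with Feature Extraction 9.5.3.1 per the file headers. The deposited series table holds the authors' log2 values, correlated at 0.9998 or more with the values used here on the control arrays; its centring is not stated, with column medians from -0.038 to 0.037.

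From the intensities, log2 processed signal minus each array's 75th percentile was computed, control spots and outlier flags were left out, and spots of a probe were averaged. Probes were kept if all 4 control-diet arrays of SAM/P-8 or all 4 of SAM/R-1 were well above background, 28223 of 41174. At least 2 measured values in every group were also required. A model with 4 group means was fitted to all 16 arrays with limma 3.58.1 in R 4.3.3, with Benjamini-Hochberg adjustment at 0.05. A gene was read by the kept probe of highest mean level across all 16. Accessions named 24836 probes through RefSeq, giving 17174 symbols, and 16338 probes stayed unnamed. In simulated data, 71% of 100 probes changed by 0.5 and 94% of 100 changed by 1 on the log2 scale were recovered, with 9 false calls. The simulation changed a far smaller share of probes than passed here and drew independent arrays without slides. Its recovery and false calls therefore do not carry over to the real arrays. List scores are means over members of the log2 value minus the gene's mean.

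The members and the 49 gene lists were chosen with earlier results of these data known. Genes were named by rule, in part among those that passed with no overlap between the strains' arrays. From these came the 15 largest increases and decreases measured on all 8 arrays and the 8 largest bounds each way. The 10 largest each way among genes whose probes all passed in 1 direction came from them too. Without regard to overlap, up to 4 members of each list that passed were named, and the longest 5 runs of neighbours. Where no member of a list passed, those with the smallest p were named. The other genes in the text were chosen after their values were seen. Same-numbered arrays of the strains did not all deviate together, and the strains were compared without pairing, though a pairing is not excluded. Background correction, normalization, filters, probe choice, single arrays left out and the authors' table were tried as alternatives. The number of arrays limits the precision. Results for a few genes are not reported here.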

Additional observations from a re-analysis of the deposited data

Results flagged for a closer look

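With 4 arrays a group, an array was singled out where its gap to the nearest other, divided by the range of the group, exceeded Dixon's critical value. This held for 19 of 372 gene groups and 4 of 98 list scores, and chance gives about 1 in 20. No cause was tested.

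In SAM/P-8, replicate 1 stood apart for Adat2 at 0.657 (others 0.811 to 0.834), Gdpd5 at -2.831 (-3.585 to -3.5), Hsp90ab1 at 5.833 (6.003 to 6.021), Adam17 at -0.524 (-0.817 to -0.767), Mrps10 at 1.846 (2.008 to 2.034) and Rora at 1.19 (0.387 to 0.452). Replicate 3 stood apart for Mrpl41 at 2.642 (2.551 to 2.562) and Hsd17b7 at 0.724 (0.869 to 0.884). Replicate 4 stood apart for Gstm2 at -1.049 (0.301 to 0.514) and Laptm5 at -0.293 (-0.359 to -0.348). It was also the lowest for the scores of telomeres and sirtuins at -0.103 (0.009 to 0.028) and of neurotrophins and IGF signalling at -0.087 (0.036 to 0.051).

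In SAM/R-1, replicate 1 stood apart for Tyk2 at -7.154 (others -8.233 to -8.171), Oas1a at -8.461 (-8.185 to -8.163), Psmb8 at -1.707 (-1.39 to -1.348), Cacnb4 at 1.523 (1.315 to 1.333) and Rora at 0.326 (0.108 to 0.136). For Tyk2 and Oas1a these are values not well above background. Replicate 2 stood apart for Ccl19 at -0.096 (-1.349 to -1.174), Vwf at 0.108 (-0.733 to -0.598) and the NRF2 score at 0.045 (-0.058 to -0.046). Replicate 4 stood apart for S100a9 at -3.723 (-2.553 to -2.452), Olfr373 at -4.98 (-4.9 to -4.888) and the JAK-STAT score at -0.248 (-0.176 to -0.166).

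The strain difference on the control diet minus that on the CCH diet was 2.575 for AY761185 and -0.984 for Tert, each with an adjusted p of 0.00396 in limma's interaction test.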

How the results depend on the processing

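The 1737 higher and 2254 lower probes became 490 and 500 with the normexp background correction (genes 260 and 229, against 828 and 893), 1793 and 2104 with quantile normalization, 1629 and 1757 with array medians, 1590 and 2119 with no filter, 1411 and 1888 with the 8 arrays alone and 1735 and 2305 in the authors' table. With the replicate block they were 1614 and 2139 (genes 786 and 847). The deviations of same-numbered arrays correlated at -0.004, 0.032, 0.025 and 0.323, which does not settle whether the numbers pair the samples. The replicate number was also the position of the array on its slide, so this block stood for position too. Leaving out 1 array gave 1289 to 1555 higher and 1663 to 2002 lower probes, and 634 to 783 higher and 632 to 796 lower genes. Of the 3991 probes that passed, 3990 had the same direction with normexp. The share of higher calls was 43.5%, and 49.5% with normexp. Of 174 named genes that passed, 92 did not with normexp and 46 did not without at least 1 array. Read by the median over probes, Per2 was -0.013, Sox11 -0.931 and Il11ra1 -0.071, the opposite sign. Interferon genes higher numbered 20 to 25 without 1 array and 8 with normexp, and vascular genes 11 to 17 and 7. The slide as a random block was not run, since no slide held more than 1 group and no group more than 1 slide. Calls among probes near background are the least certain, those of decreases most of all.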

Other observations

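For markers of neighbouring brain regions and for the lists after them, the shares of all genes were 6.25% higher and 6.74% lower. None of 14 striatal and none of 12 thalamic and habenular genes passed, and of 17 neocortical genes 2 were lower, Nxph4 and Rorb. The other probe of Rorb did not pass (-0.08 ± 0.15, adjusted p = 0.791). The dimmer probe of Rora, of the thalamic list, was higher by 0.52 ± 0.16 (adjusted p = 0.0401). Of 11 measured pituitary and hypothalamic genes 3 were lower, Pomc, the precursor of melanocortins, by -0.56 ± 0.05, Ghrh, the releasing hormone for growth hormone, by -0.77 and Lhb by -0.28. Of 27 metallothioneins and metal transporters 3 were higher and 1 lower, with Cp, the copper protein ceruloplasmin, at 0.83 and Mt3, the brain metallothionein, at 0.51 ± 0.07. The calls of Lhb and Cp were each lost in 6 of the 8 fits that left out 1 array. Of 26 calcium pumps and exchangers 3 were higher and 1 lower, with Atp2b2, a plasma membrane pump, at 0.42 and Slc24a2, a sodium-calcium exchanger, at -0.34. The other probe of Slc24a2 did not pass (-0.14 ± 0.14, adjusted p = 0.558).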
